A study of Mus musculus with 15 samples.

Results

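Endothelial cells line blood vessels and sinusoids, and 10 genes that mark them were followed in cultured bone marrow mesenchymal stromal cells (MSCs). The genes were Pecam1, Cdh5, Esam, Kdr, Flt1, Tek, Tie1, Emcn, Vwf and Erg. They were taken by gene symbol from a count table of 56832 genes, in which all 10 had a row. Of the 18263 genes with enough counts to be tested, 8 were members of this set, and Tie1 and Erg fell below that filter.

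The cultures came from femurs and tibias of 16 week old mice. TauT+/+ mice carried the intact Slc6a6 gene, which encodes the taurine transporter TauT, and TauT-/- mice carried a global loss of it, on a C57BL/6J background in both groups. The 15 bulk RNA libraries are labelled as 4 TauT+/+ male, 4 TauT-/- male, 3 TauT+/+ female and 4 TauT-/- female samples. Every culture was grown on collagen in low oxygen, and the series text gives a magnetic sort for cells without CD45, the pan-leukocyte antigen. The methods of the study also name CD31 and Ter119 among the antigens removed from MSC cultures. Which selection these RNA libraries had is not given in the sources used here. CD31 is the product of Pecam1, so if CD31+ cells were removed, that gene was part of the selection. The labels do not say whether libraries of a group came from separate animals, and p-values then measure only the spread between these libraries.

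Endothelial cells hold together through the homotypic adhesion proteins CD31 (Pecam1), VE-cadherin (Cdh5) and ESAM (Esam). They take up growth signals through the VEGF receptors VEGFR2 (Kdr) and VEGFR1 (Flt1) and through the angiopoietin receptor TIE2 (Tek) with its partner TIE1 (Tie1). Emcn encodes the surface sialomucin endomucin, Vwf the clotting protein von Willebrand factor, and Erg an ETS-family transcription factor of endothelium. Several of these genes are also known outside the endothelium. Platelets and megakaryocytes make von Willebrand factor and CD31, and monocytes carry VEGFR1 and CD31. In bulk RNA, fewer cells of a type and less RNA of a gene per cell cannot be told apart.

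Several libraries stood apart from the rest or from their labels. Male-labelled libraries held 69764291 to 101575071 counts and female-labelled ones 12761107 to 20781070, so that depth and sex label cannot be told apart. The sex-linked genes Xist and Ddx3y did not match the labelled sex of 3 libraries, TauT+/+ male 1, TauT-/- male 1 and TauT+/+ female 3. TauT-/- male 1 and TauT-/- female 1 were nearly identical, with a median absolute log2 ratio of 0.116 over 12321 genes against 0.0677 from counting error, and TauT+/+ male 1 and TauT+/+ female 1 likewise (0.128 against 0.0708). The next closest of the 105 pairs stood at 0.289. Slc6a6 itself ranged from 586 to 2654 CPM (counts over library totals that were adjusted by TMM) in TauT+/+ and from 392 to 1570 CPM in TauT-/- libraries, so the groups overlapped, and libraries are named here by their labels. Several results below are therefore also given for 13 libraries, in which each near-identical pair is represented once. Comparisons within a sex label are given from all 15 libraries only. Of 13 MSC markers, 12 were above 3 counts in all 15 libraries, such as Prrx1 with a median of 396 CPM, but Lepr, the leptin receptor of marrow stroma, had a median of 1.12 CPM and was at 0 in its lowest library, and Eng was at 4.45 CPM in its lowest. Ptprc, the gene of CD45, was measured at 28.6 to 379 CPM.

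The promoters of Kdr, Flt1 and Vwf are shown because these genes had the largest fitted differences by genotype among the 8 tested members. Each run is the 150 bases before the start of the gene's canonical transcript on GRCm39, read 5′ to 3′ on the strand of the gene. They lie at chr5:76139119-76139268 (Kdr, minus strand), chr5:147662822-147662971 (Flt1, minus strand) and chr6:125529761-125529910 (Vwf, plus strand). Capitals mark the hexamers CGGAAG and AGGAAG on either strand, which hold the GGAA core that ETS factors such as ERG are known to bind.
Kdr: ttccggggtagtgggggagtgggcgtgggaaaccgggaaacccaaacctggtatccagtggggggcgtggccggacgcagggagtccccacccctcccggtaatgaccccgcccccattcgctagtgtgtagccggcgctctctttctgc
Flt1: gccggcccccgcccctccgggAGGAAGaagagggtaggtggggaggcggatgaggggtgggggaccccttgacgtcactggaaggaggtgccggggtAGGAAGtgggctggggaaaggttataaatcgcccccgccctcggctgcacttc
Vwf: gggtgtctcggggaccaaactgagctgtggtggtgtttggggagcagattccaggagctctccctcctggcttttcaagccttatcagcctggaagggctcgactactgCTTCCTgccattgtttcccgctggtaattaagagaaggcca
Flt1 held 2 of these hexamers, Vwf held 1, and Kdr held 0. Among the other members, matches were found for Tie1 (2), Emcn (2) and Erg (1). Of all 21769 protein-coding promoters of this length, 28.1% had a match. A match is a description of the letters in the window and not a measured binding site.

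Every member was low beside the stromal receptor gene Pdgfrb of the same cultures. Levels were compared between genes as CPM per kilobase of exon, taken as the median over the 15 libraries. Vwf stood highest at 0.673, followed by Kdr at 0.562, Esam at 0.123, Flt1 at 0.110, Cdh5 at 0.102, Tek at 0.0654, Pecam1 at 0.0224, Erg at 0.0161, Emcn at 0.00173 and Tie1 at 0. The order differed between the genotypes. In TauT+/+ libraries the medians per kilobase were 0.442 for Vwf, 0.414 for Kdr, 0.123 for Esam and 0.0776 for Flt1, and in TauT-/- libraries 0.737, 1.22, 0.226 and 1.14. On the scale of all 15 libraries Pdgfrb stood at 56.9 and Ptprc at 8.78. Neighbours in this order often changed places between libraries. Vwf was above Kdr in 8 of 15 libraries and Esam above Flt1 in 6 of 15, whereas Kdr was above Esam and Pecam1 above Erg in 12 of 15 each. Flt1 had the highest single value, 9.09 CPM per kilobase. Against the limit of 3 counts, which is 0.0307 to 0.0433 CPM in male-labelled and 0.138 to 0.224 CPM in female-labelled libraries, Vwf, Kdr and Flt1 were above it in all 15 libraries. Esam and Cdh5 passed it in 13, Tek and Pecam1 in 12, Erg in 6, Emcn in 3 and Tie1 in 2.

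**Figure D1:**
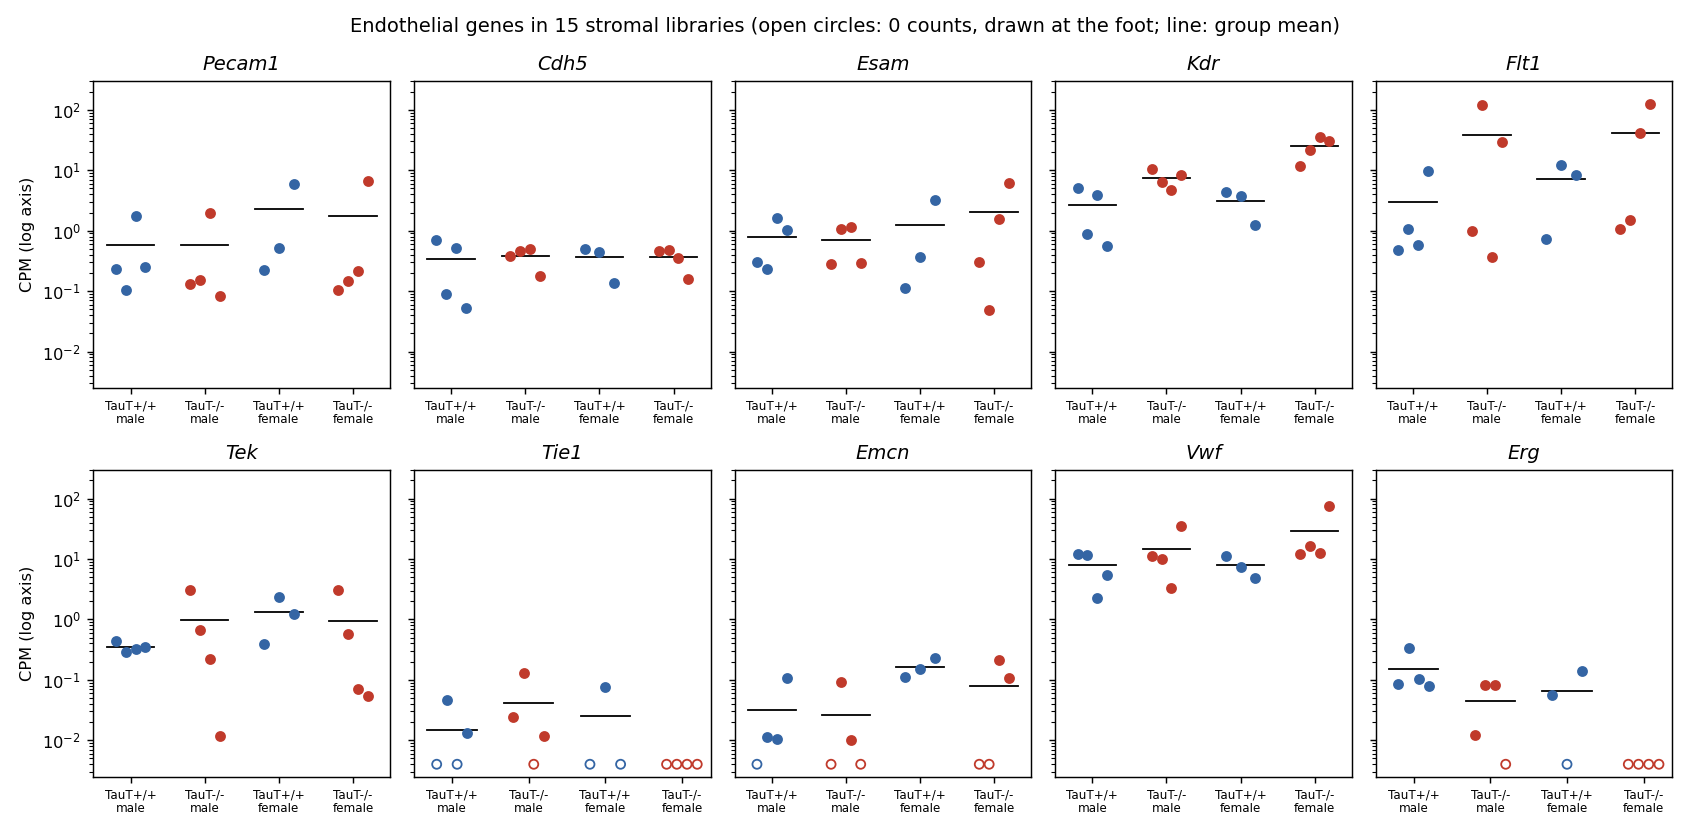
CPM of the 10 endothelial genes on log axes, by genotype and sex label, with 1 point per library, a line at each group mean and open circles at the foot for libraries with 0 counts. Kdr in TauT-/- libraries lies at 4.64 to 35.8 CPM against 0.559 to 5.17 CPM in TauT+/+ libraries, while Pecam1, Esam, Cdh5 and Tek overlap across the genotypes.

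Among the junction genes, Pecam1 was low in most cultures and high in a few of either genotype. It is on chr11:106543689-106641454 (GRCm39, minus strand). Its values were 0.231, 0.103, 1.73 and 0.253 CPM in TauT+/+ male libraries 1 to 4 and 0.133, 0.151, 1.98 and 0.0816 CPM in TauT-/- male libraries 1 to 4. In female-labelled libraries it stood at 0.224, 0.523 and 6.01 CPM in TauT+/+ and at 0.102, 0.145, 0.213 and 6.67 CPM in TauT-/-. The 4 high libraries were thus TauT+/+ male 3, TauT-/- male 3, TauT+/+ female 3 and TauT-/- female 4, at 124 to 194 counts each, and the genotypes overlapped throughout. Pecam1 averaged 1.30 ± 2.15 CPM over the TauT+/+ libraries (SD, n = 7) and 1.19 ± 2.31 over the TauT-/- ones (n = 8), with a log2 fold change of −0.15 (SE 1.05, edgeR adjusted p = 0.951). A single library set the sign of this value, which was −1.41 without TauT-/- female 4 and 0.75 without TauT+/+ female 3. With the 3 sex-discordant libraries omitted it was 0.96, and with the mean level of macrophage markers in the model −2.04 (SE 1.28).

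Cdh5, the adherens junction cadherin regarded as most specific to endothelium, was under 1 CPM in every culture and above the limit of 3 counts in 13 of 15. It lies on chr8:104828231-104871143 (plus strand). The TauT+/+ libraries held 0.693, 0.0911, 0.510 and 0.0533 CPM under the male and 0.505, 0.448 and 0.138 CPM under the female label. The TauT-/- libraries held 0.387, 0.464, 0.491 and 0.175 CPM under the male and 0.461, 0.483, 0.355 and 0.161 CPM under the female label. No library exceeded 0.693 CPM, and the genotypes overlapped fully. The means were 0.348 ± 0.251 (n = 7) and 0.372 ± 0.134 CPM (SD, n = 8), and the log2 fold change was 0.12 (SE 0.51, edgeR adjusted p = 0.917). The antisense transcript Gm64067 overlaps exons of Cdh5. The authors set the counting by strand, but whether the library kit keeps strand is not given in the sources used here, so reads of the pair may be shared.

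Esam, a tight-junction adhesion molecule of endothelium and platelets on chr9:37439344-37449615 (plus strand), was highest in libraries that were also high in Pecam1. It was measured at 0.303, 0.228, 1.59 and 1.04 CPM in TauT+/+ male, 0.278, 1.07, 1.17 and 0.291 CPM in TauT-/- male, 0.112, 0.374 and 3.21 CPM in TauT+/+ female and 0.307, 0.0483, 1.56 and 6.24 CPM in TauT-/- female libraries. The highest values, 6.24 and 3.21 CPM, were in TauT-/- female 4 and TauT+/+ female 3, which also had the highest Pecam1. The log2 fold change by genotype was 0.22 (SE 0.86, edgeR adjusted p = 0.906), and it was −0.54 without TauT-/- female 4.

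Across the 15 libraries, Pecam1 and Esam had the closest relation of any pair of the 8 tested members, with a Pearson r of 0.85 and a Spearman rho of 0.72 on log2(CPM + 0.5). With 13 libraries r was 0.84 or 0.85, depending on which of each pair was kept. These are descriptions over libraries that share depth and label, and few of the libraries were high. The lowest r of any member pair was −0.41, between Cdh5 and Flt1. The 5 tested genes with the closest pattern to Pecam1 were Slc13a3 (r = 0.97), Csf3 (0.97), Urah (0.95), Treml4 (0.94) and Gm14275 (0.94), over 15 libraries. In the same order their Spearman rho was 0.79, 0.61, 0.74, 0.86 and 0.64, and no median exceeded 0.617 CPM. None of the other tested endothelial genes was among these 5, and Tie1 and Erg were not searched.

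**Figure D2:**
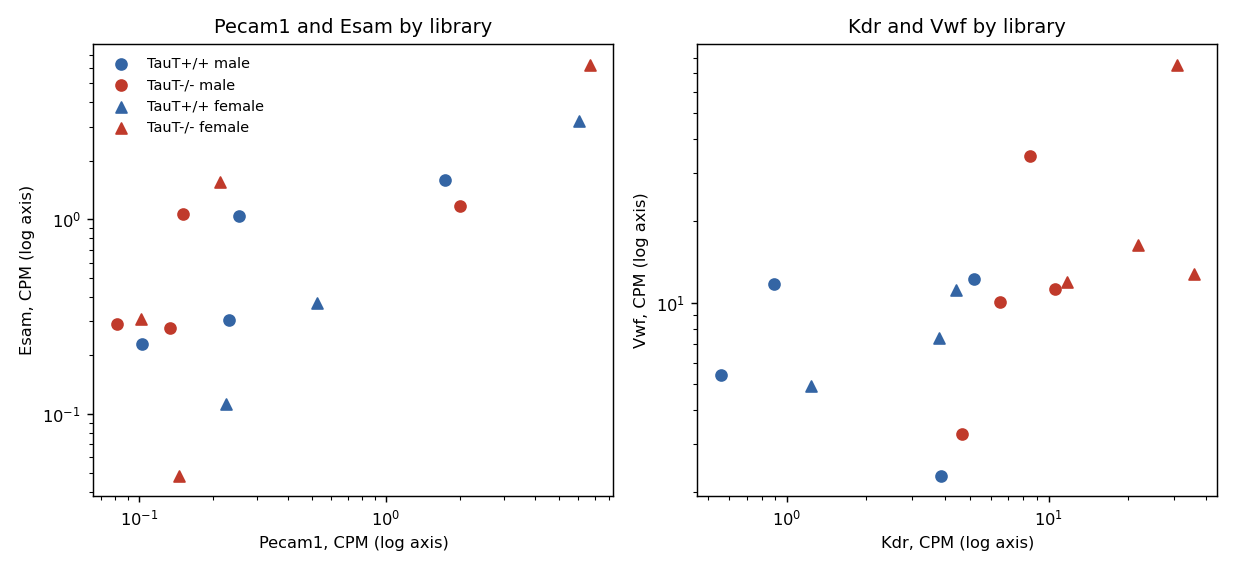
Esam against Pecam1 (left) and Vwf against Kdr (right), both in CPM on log axes, with 1 point per library, colour for genotype and shape for sex label. The libraries highest in Pecam1, at 6.01 and 6.67 CPM, were also the highest in Esam, and both genotypes hold one of them.

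The VEGF receptors gave the largest genotype differences of the set. Kdr encodes VEGFR2, the main signalling receptor for VEGF-A on endothelium, and lies on chr5:76093487-76139884 (minus strand). It stood at 5.17, 0.889, 3.86 and 0.559 CPM in TauT+/+ male and at 4.43, 3.81 and 1.24 CPM in TauT+/+ female libraries. It stood at 10.6, 6.50, 4.64 and 8.50 CPM in TauT-/- male and at 11.8, 21.8, 35.8 and 30.9 CPM in TauT-/- female libraries. Of the 8 TauT-/- libraries, 7 were above every TauT+/+ library, and the exception was TauT-/- male 3 at 4.64 CPM, below TauT+/+ male 1. The lowest count behind a value was 27.

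Kdr averaged 2.85 ± 1.89 CPM over the TauT+/+ libraries (SD, n = 7) and 16.3 ± 11.8 over the TauT-/- ones (n = 8), a fitted 4.52-fold difference with a log2 fold change of 2.18 (SE 0.52). It missed the threshold of 0.05 in edgeR's quasi-likelihood test (adjusted p = 0.0564) and passed it in DESeq2 (adjusted p = 0.000764). It passed in edgeR when TauT+/+ male 1 (adjusted p = 0.0434) or TauT+/+ male 3 (0.0277) was left out. Over all 15 fits without 1 library, the log2 fold change stayed between 1.93 and 2.52 and the adjusted p between 0.0277 and 0.129. With 13 libraries it was 2.45 (edgeR adjusted p = 0.0729) or 2.21 (0.116), and without the 3 libraries discordant for sex-linked genes 2.20 (0.156). Kdr also moved with the macrophage markers of the same libraries, with an r of 0.69 to their summed CPM over 15 libraries. With the macrophage level in the model its log2 fold change was 1.66 (edgeR adjusted p = 0.246).

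Flt1 encodes VEGFR1, which binds VEGF-A tightly and signals weakly, and lies on chr5:147498414-147662826 (minus strand). Its values spanned 0.476, 1.06, 0.583 and 9.88 CPM in TauT+/+ male and 1.00, 120.0, 0.368 and 29.6 CPM in TauT-/- male libraries. Female-labelled libraries held 0.729, 12.2 and 8.35 CPM in TauT+/+ and 1.07, 1.50, 41.1 and 124 CPM in TauT-/-. The 4 highest libraries were all TauT-/-, and the other 4 TauT-/- libraries were at 0.368 to 1.50 CPM, at the low end of the TauT+/+ range or, for TauT-/- male 3, below it.

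Flt1 averaged 4.75 ± 5.16 CPM in TauT+/+ (SD, n = 7) and 39.8 ± 53.0 in TauT-/- (n = 8), with SDs above the means. The log2 fold change of 3.15 (SE 1.31) missed the threshold in edgeR (adjusted p = 0.165) and passed it in DESeq2 (adjusted p = 0.0301). Without TauT-/- male 2 it was 2.12, over all fits without 1 library the edgeR adjusted p lay between 0.127 and 0.313, and the log2 fold change was 0.88 (adjusted p = 0.739) in limma-voom with sample weights. With 13 libraries it was 3.10 (edgeR adjusted p = 0.198) or 3.19 (0.211). Flt1 ran against the summed MSC markers, with an r of −0.77 over 15 libraries. The r was −0.65 for Vwf, −0.58 for Kdr, −0.51 for Esam, −0.32 for Pecam1 and −0.12 for Emcn, but 0.28 for Cdh5 and 0.29 for Tek. Col1a1 and Cxcl12 had the highest mean CPM in that sum.

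Kdr and Flt1 shared some of their high cultures and not others. TauT-/- female 3 and 4 had the highest Kdr values, 35.8 and 30.9 CPM, and were also high in Flt1, at 41.1 and 124 CPM. Their r over 15 libraries was 0.30, and TauT-/- male 2, with 120.0 CPM of Flt1, had 6.50 CPM of Kdr, while TauT-/- female 2 had 1.50 CPM of Flt1 and 21.8 CPM of Kdr. The 5 genes with the pattern nearest to Flt1, the member with the highest mean CPM, were Stac (r = 0.93), Mvp (0.86), Trim47 (0.85), Amz1 (0.85) and Inpp5j (0.84). Those nearest to Kdr, looked up after its values were seen, were Lrp12 (0.96), Tnfsf13os (0.96), Atmin (0.93), Slc39a11 (0.92) and Fcna (0.92).

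Tek, the receptor TIE2 for angiopoietins, is on chr4:94627291-94763224 (plus strand) and overlapped between the genotypes under both labels. It was at 0.433, 0.285, 0.322 and 0.346 CPM in TauT+/+ male, 3.07, 0.662, 0.225 and 0.0117 CPM in TauT-/- male, 0.392, 2.39 and 1.24 CPM in TauT+/+ female and 3.12, 0.580, 0.071 and 0.0538 CPM in TauT-/- female libraries. The highest and the lowest values were both in TauT-/- libraries, and the highest ones, 3.12 and 3.07 CPM, belong to the near-identical pair. The lowest ones, in TauT-/- male 4, female 3 and female 4, rest on 1 count each, below the limit of 3 counts. The log2 fold change was 0.61 (SE 0.94, edgeR adjusted p = 0.730) with 15 libraries, and −0.30 or −0.037 with 13. Its partner Tie1, on chr4:118328385-118347261 (minus strand), had 20 counts over all libraries together, 6 in TauT+/+ and 14 in TauT-/-, and was at 0 in 9 libraries. The antisense transcript Gm70435 overlaps its exons.

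Vwf, on chr6:125523737-125663642 (plus strand), encodes a glycoprotein that tethers platelets, and its RNA was detected in every culture of both genotypes. It stood at 12.2, 11.7, 2.30 and 5.41 CPM in TauT+/+ male, 11.3, 10.1, 3.27 and 34.6 CPM in TauT-/- male, 11.1, 7.40 and 4.91 CPM in TauT+/+ female and 11.9, 16.3, 12.8 and 75.5 CPM in TauT-/- female libraries. The highest of these, 75.5 and 34.6 CPM, were TauT-/- female 4 and TauT-/- male 4. TauT-/- female 2 and 3 lay just above the TauT+/+ range, and the other 4 TauT-/- libraries lay within it. Its averages were 7.85 ± 3.87 CPM in TauT+/+ (SD, n = 7) and 22.0 ± 23.5 in TauT-/- (n = 8), with a log2 fold change of 1.35 (SE 0.58). It missed the threshold in edgeR (adjusted p = 0.174) and in DESeq2 (adjusted p = 0.0787). Without TauT-/- female 4 the log2 fold change was 0.84, and with 13 libraries 1.61 (edgeR adjusted p = 0.165) or 1.46 (0.241). Vwf and Kdr had an r of 0.59 (rho 0.72).

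Emcn, a marker of sinusoidal and type H vessels of bone on chr3:137046794-137138999 (plus strand), was close to absent. It had 33 counts over the 15 libraries, was at 0 in 5 of them and never exceeded 0.229 CPM. Its log2 fold change was −0.65 (SE 0.94, edgeR adjusted p = 0.706). Erg, on chr16:95160028-95387452 (minus strand), had 72 counts, of which 56 were in TauT+/+ and 16 in TauT-/- libraries. In TauT+/+ libraries it had 6, 30, 10 and 6 counts under the male and 1, 0 and 3 under the female label, and in TauT-/- libraries 1, 7, 8 and 0 under the male and 0 in every one under the female label. Over all 15 libraries Erg was tested only with the filter on low counts removed. There its log2 fold change was −2.11 (SE 0.77, edgeR unadjusted p = 0.0142, adjusted p = 0.207) and that of Tie1 was 0.71 (SE 1.06, adjusted p = 0.747). Erg also passed the filter with 13 libraries, male-labelled kept, and without TauT+/+ female 1 or TauT+/+ female 2. It could enter these fits only through its highest libraries, TauT+/+ male 2 at 0.342 CPM and TauT+/+ female 3 at 0.138 CPM. Both are of the genotype in which it was higher, so no test of Erg is drawn from these fits.

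Read as a set over all 15 libraries, 0 of the 8 tested members passed the adjusted threshold in edgeR in either direction, where 0.564% of all tested genes were called higher and 0.591% lower in TauT-/-. At an unadjusted p under 0.05, 3 of 8 were higher (Kdr, Flt1 and Vwf) and 0 lower, against 11.8% of all tested genes in each direction. DESeq2 called 2 of 8 higher, against 5.34% of all tested genes, and 0 lower, against 6.13%. It gave no adjusted p for Emcn, which could thus not be called. limma-voom called 1 higher, against 3.61%, and 0 lower, against 2.93%. Of the 8 log2 fold changes 6 were positive, with a median of 0.41, while the median over all genes tested was 0.0049. The summed CPM of the members ran from 11.0 to 27.4 in TauT+/+ (median 17.7) and from 12.2 to 244 in TauT-/- libraries (median 57.1), a sum that is mostly Flt1, Kdr and Vwf.

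Within the sex labels, which also separate the depths, the genotypes were compared again. Under the male label 0 members passed the adjusted threshold in edgeR (0 genes of all tested, 0%), 1 was higher at an unadjusted p under 0.05 (Kdr, background 4.51%) and 0 lower (4.19%), and DESeq2 called 0 in either direction (background 0.203% higher and 0.274% lower). Kdr had a log2 fold change of 1.53 (SE 0.63, edgeR adjusted p = 0.560), Flt1 of 3.65 (SE 1.83, 0.578), Vwf of 0.91 (SE 0.76, 0.732) and Tek of 1.51 (SE 1.24, 0.726). Under the female label 0 members passed in edgeR (0%), 2 were higher at an unadjusted p under 0.05 (Kdr and Vwf, background 8.03%) and 0 lower (6.76%). DESeq2 called 1 higher, Kdr (adjusted p = 0.0047, background 1.18%), and 0 lower (1.14%). Under both labels DESeq2 gave no adjusted p for Pecam1 and Emcn, so neither could be called there.

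The 4 TauT-/- female libraries did not overlap the 3 TauT+/+ female libraries in Kdr, which 6.87% of tested genes also showed in this direction. The log2 fold change of Kdr was 2.99 there (SE 0.76, edgeR adjusted p = 0.245), a 7.96-fold difference. Flt1 had 2.57 (SE 1.97, edgeR adjusted p = 0.542), Vwf 1.90 (SE 0.87, 0.330) and Tek −0.46 (SE 1.34, 0.886). The difference of the genotype effect between labels was 1.46 for Kdr (SE 0.93) and −1.98 for Tek (SE 1.81). In edgeR 0 members passed that test (0% of all tested genes), and 0 did at an unadjusted p under 0.05, where 0.969% of tested genes were higher and 0.646% lower. DESeq2 called 0 members, against 0% of tested genes higher and 0.011% lower, and gave no p-value for Pecam1.

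**Figure D3:**
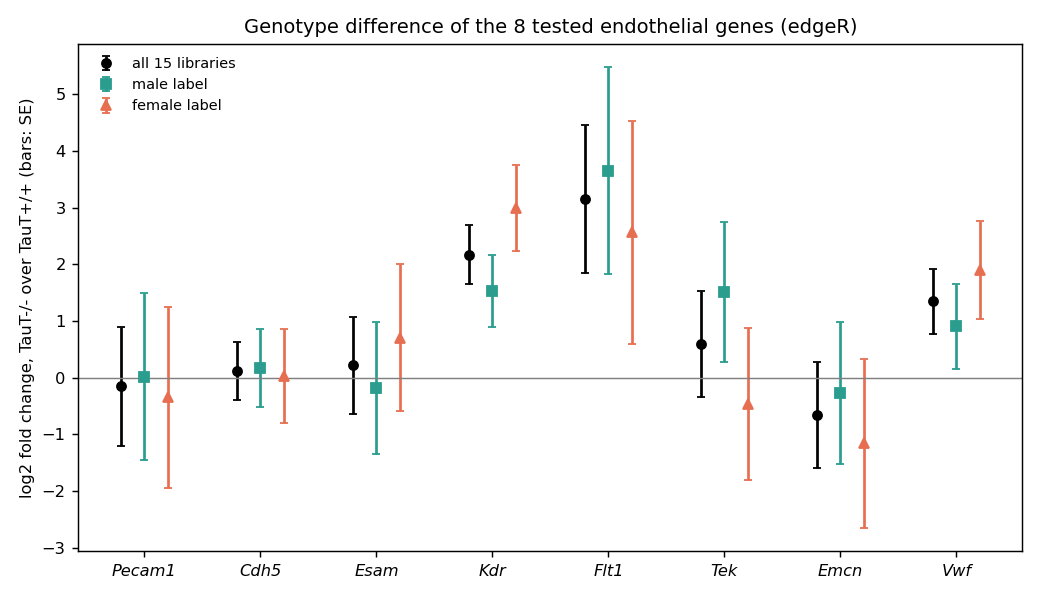
log2 fold change of TauT-/- over TauT+/+ from edgeR for the 8 tested endothelial genes, over all 15 libraries and within each sex label, with bars for the SE. Kdr lies at 2.18 over all libraries, 1.53 under the male and 2.99 under the female label, and Tek at 1.51 and −0.46 under the male and female label.

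Other endothelial genes were read from lists. For comparison with each list, 11.8% of all tested genes were higher and 11.8% lower at an unadjusted p under 0.05. The adjusted calls were 0.564% higher and 0.591% lower in edgeR, and 5.34% higher and 6.13% lower in DESeq2. Of 22 further junction and surface genes 16 were tested, and 0 passed in edgeR, 0 in DESeq2 and 1 at an unadjusted p under 0.05 (lower in TauT-/-), with 6 positive and 10 negative log2 fold changes and a median of −0.22. Above the limit of 3 counts in all 15 libraries were 10 of the 22, among them Ecscr (median 8.17, highest 25.1 CPM), Adgrl4 (median 2.87, highest 17.6 CPM) and Egfl7 (median 1.02 CPM), and 6 were above it in 5 libraries or fewer. Cldn5, the claudin of endothelial tight junctions, never exceeded 0.104 CPM, Robo4 never 0.0144 CPM, and Gpihbp1, a lipase anchor of capillaries, had 0 counts in every library. The genes of the list with the highest mean CPM were Thbd, Eng and S1pr1, which are also known outside endothelium. Thbd, the thrombin receptor thrombomodulin, averaged 283 ± 89.5 and 366 ± 249 CPM, with a log2 fold change of 0.37 (SE 0.42, edgeR adjusted p = 0.618), and S1pr1, a sphingosine-1-phosphate receptor, 230 ± 192 and 107 ± 31.6 CPM, with −1.08 (SE 0.48, adjusted p = 0.188). Eng, a TGF-beta co-receptor, had a mean of 284 ± 164 CPM (SD, n = 7) in TauT+/+ against 92.8 ± 119 in TauT-/- (n = 8), with a log2 fold change of −1.70 (SE 0.82, edgeR adjusted p = 0.222).

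Of 11 further endothelial transcription factors 9 were tested and 0 passed in edgeR, while 2 were higher and 3 lower at an unadjusted p under 0.05. DESeq2 called 1 higher and 1 lower, named here after their values were seen. Lmo2, a partner in hematopoietic and endothelial complexes, had a log2 fold change of 1.29 (DESeq2 adjusted p = 0.0224), and Mecom −1.82 (DESeq2 adjusted p = 0.000888). The ETS factors Fli1 and Ets1, relatives of Erg, were measured in every library at means of 16.6 ± 4.50 and 72.5 ± 9.22 CPM in TauT+/+ (SD, n = 7) and 26.0 ± 8.86 and 57.3 ± 12.6 CPM in TauT-/- (n = 8). Their log2 fold changes were 0.65 (SE 0.23, edgeR adjusted p = 0.120) and −0.34 (SE 0.14, adjusted p = 0.162). Sox17, an arterial endothelial factor, had at most 0.0116 CPM. The 8 sinusoidal and lymphatic genes had 0 calls in edgeR and DESeq2 and 0 at an unadjusted p under 0.05. Stab1, a scavenger receptor of sinusoids and macrophages, had the highest CPM of them at 985 ± 497 and 1276 ± 427 CPM, while Stab2, its relative in sinusoidal endothelium, was at most 0.413 CPM.

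The ligands that act on Kdr, Flt1 and Tek were also measured in these cultures. Of 14 pathway genes 13 were tested. In edgeR 0 passed, 1 was higher and 3 lower at an unadjusted p under 0.05, and the median log2 fold change was −0.50. Vegfa, the principal ligand of both VEGF receptors, averaged 967 ± 341 CPM in TauT+/+ (SD, n = 7) and 699 ± 341 in TauT-/- libraries (n = 8) (log2 fold change −0.50, edgeR adjusted p = 0.316). Nrp2 and Nrp1, co-receptors for VEGF and semaphorins, were the next by CPM, with log2 fold changes of 0.53 (edgeR adjusted p = 0.185) and −0.61 (0.229). DESeq2 called 2 genes of the list lower, which are named after their values were seen. Vegfc, a ligand of VEGFR3 and VEGFR2, stood at 27.7 ± 28.7 and 4.39 ± 1.93 CPM (log2 fold change −2.65, SE 0.66, edgeR adjusted p = 0.0596, DESeq2 0.00118). Angpt2, an angiopoietin that antagonizes TIE2 in many settings, stood at 120 ± 163 and 13.7 ± 10.1 CPM (log2 fold change −3.13, SE 1.02, edgeR adjusted p = 0.0972, DESeq2 0.00826).

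Of 9 arterial and tip-cell genes 8 were tested and 2 fell in TauT-/- libraries in edgeR, against 0.591% of all tested genes. There were 4 positive and 4 negative log2 fold changes, with a median of −0.38. Esm1, a secreted proteoglycan made by tip cells, averaged 93.1 ± 102 CPM in TauT+/+ (SD, n = 7) and 3.07 ± 2.67 in TauT-/- (n = 8), and its log2 fold change was −5.02 (SE 0.96, edgeR adjusted p = 0.0355). Its groups overlapped, at 3.76 to 234 CPM in TauT+/+ and 0.213 to 6.95 CPM in TauT-/-. The highest values, 234 and 232 CPM, were in TauT+/+ male 1 and TauT+/+ female 1, which are a near-identical pair that weighs doubly in the mean. Unc5b, a netrin receptor of tip cells, fell to 145 ± 58.0 CPM against 311 ± 87.3 in TauT+/+, and its log2 fold change was −1.11 (SE 0.25, edgeR adjusted p = 0.0497), with no overlap at 234 to 461 against 82.0 to 229 CPM. Such a lack of overlap, lower in TauT-/-, was seen in 0.334% of tested genes. Which cells of these cultures held the RNA of Esm1 and Unc5b was not tested. Both calls were lost in most fits without 1 library. Esm1 passed in 6 of 15, those without TauT+/+ male 3, TauT+/+ male 4, TauT+/+ female 3, TauT-/- male 2, TauT-/- female 1 or TauT-/- female 2, with an edgeR adjusted p of up to 0.0877 in the others. Unc5b passed in 3 of 15, those without TauT+/+ male 3, TauT-/- male 3 or TauT-/- female 2, with an adjusted p of up to 0.124 in the others. With 13 libraries the edgeR adjusted p was 0.0756 or 0.100 for Esm1 and 0.0843 or 0.110 for Unc5b.

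**Figure D4:**
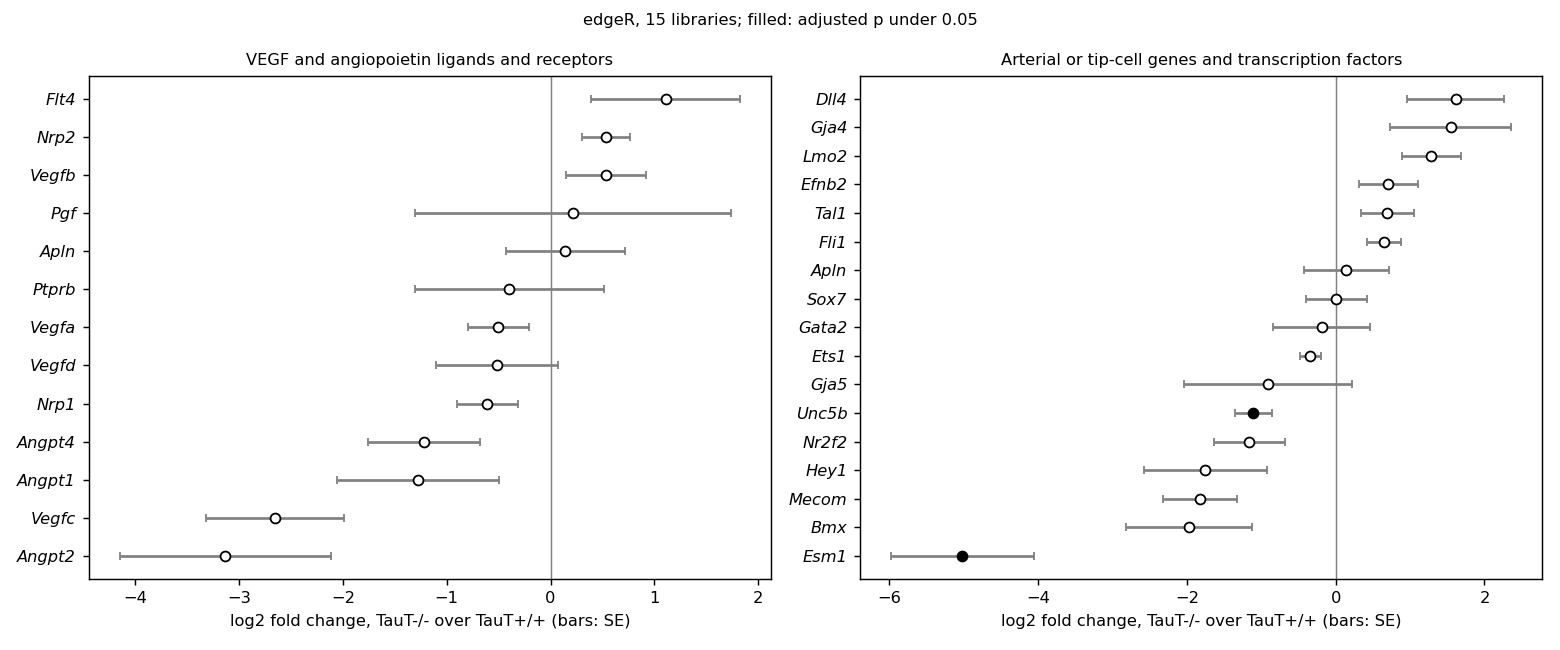
log2 fold change of TauT-/- over TauT+/+ (edgeR, 15 libraries, bars for the SE) for the tested VEGF and angiopoietin genes (left) and for arterial or tip-cell genes and endothelial transcription factors (right), with filled points for an adjusted p under 0.05. The filled points are Esm1 at −5.02 and Unc5b at −1.11.

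Markers of other cell types moved between the same libraries. All 20 macrophage markers were tested, and 19 had a positive log2 fold change, with a median of 0.92. At an unadjusted p under 0.05, 14 were higher, against 11.8% of all tested genes. Cd68, a lysosomal protein of macrophages, passed in edgeR at 178 ± 83.5 CPM (n = 7) against 532 ± 289 CPM (SD, n = 8) (log2 fold change 1.50, SE 0.33, adjusted p = 0.0432), and DESeq2 called 7 of the 20 higher. Among all tested genes edgeR called 0.564% higher and DESeq2 5.34%. The edgeR call of Cd68 held in 3 of the 15 fits without 1 library, those without TauT+/+ male 1, TauT+/+ male 3 or TauT-/- female 1, and its adjusted p reached 0.110 in the others. With 13 libraries its edgeR adjusted p was 0.0703 or 0.104, and without the 3 sex-discordant libraries 0.156. The summed CPM of the 20 macrophage markers ran from 1530 to 10004 in TauT+/+ and from 6861 to 22029 in TauT-/- libraries. Of 10 megakaryocyte and platelet genes, relevant to Vwf, Pecam1 and Esam, 5 were tested, 0 passed in edgeR, and 1 was lower both in DESeq2 and at an unadjusted p under 0.05. Their sums overlapped, at 17.9 to 100 CPM in TauT+/+ and 18.3 to 155 CPM in TauT-/-, and Pf4, the platelet chemokine, had means of 54.8 ± 28.5 and 63.3 ± 40.2 CPM. The part of these cell types in the values of Kdr, Flt1 and Vwf was not tested beyond the fit with the macrophage level. In that fit, given above for Kdr, Flt1 had a log2 fold change of 2.02 (SE 2.28, edgeR adjusted p = 0.769). Of the 8 tested members, only Kdr had an unadjusted p under 0.05 there.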

How the data were processed

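Bulk RNA was measured in 15 libraries of cultured MSCs. According to the study, the authors made full-length cDNA by oligo-dT priming, filtered reads with fastp 0.23.1, mapped them with STAR 2.7.9a to GRCm39, and assigned them to GENCODE genes with the strand setting of featureCounts (Subread 2.0.1, per the submitters' processing notes). What was deposited is a table of raw gene counts in whole numbers. All 15 columns were matched to a sample by name, and 0 were left over.

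CPM is the count over the library's total multiplied by its TMM factor. Genes were filtered by filterByExpr on the 4 groups and tested over the whole table by edgeR 4.0.16 in R 4.3.3 (quasi-likelihood test, sex label and genotype, Benjamini-Hochberg adjustment, threshold 0.05). The biological coefficient of variation was 0.494. Contrasts within a label used 1 term per group. DESeq2 1.42.0, limma 3.58.1 (voom with sample weights), other scalings and filters, a replicate block, the mean macrophage level as covariate and the omission of libraries were alternatives. Pearson r used log2(CPM + 0.5). Positions and exon lengths come from GENCODE M39, later than the annotation of the counts, and promoters from the GRCm39 genome. The procedure was tested on simulated counts.

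The members, the marker lists (further endothelial, transcription factor, sinusoidal, arterial, VEGF, platelet, macrophage, erythroid, pericyte and MSC genes) and the tests were chosen with earlier results of these data known. All 10 members are named. List genes are named where they passed, and otherwise at most 3 abundant ones, beside defining markers at or near 0 and with exceptions said to be chosen after values were seen. The limit of 3 counts covers counting error only. Depth limits the lowest members most in female-labelled libraries.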

Additional observations from a re-analysis of the deposited data

Results flagged for a closer look

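In 8 of 28 groups of 4 libraries, 1 library stood apart from the other 3 by more than Dixon's 95% critical value. For normally distributed values in independent groups, about 1.4 would do so. CPM were skewed and the genes share libraries, so the 8 cannot be read as an excess over that figure. The 28 groups are 10 genes in 3 groups, less 2 groups in which all 4 libraries were at 0. Pecam1 was high in TauT+/+ male 3 (gap over range 0.907), TauT-/- male 3 (0.964) and TauT-/- female 4 (0.983). Flt1 was high in TauT+/+ male 4 (0.938) and Vwf in TauT-/- female 4 (0.931). Emcn was high in TauT+/+ male 4 (0.893) and TauT-/- male 2 (0.890), and Erg in TauT+/+ male 2 (0.908), both genes at counts too low for these ratios to be read closely. The group of 3 TauT+/+ female libraries was too small for this check.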

How the results depend on the processing

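The log2 fold changes of Kdr and Flt1 kept a positive direction in all 26 alternatives each, as did Vwf. Emcn had enough counts to be tested in only 14 of the alternatives and was negative in each of those. Members called higher in TauT-/-, 0 of 8 in edgeR, were 2 of 8 in DESeq2, 1 of 8 in limma-voom and 1 of 8 without the sex term. With at least 10 counts in every library only 3 members were tested, and 1 was called. Over the fits without 1 library 0 to 1 was called, with 7 to 9 members tested. Under the female label DESeq2 called 1. The counts over all genes for most of these settings are given below. Kdr had a log2 fold change of 2.37 in voom (adjusted p = 0.0177), 2.13 in edgeR with at least 10 counts (0.0476) and 2.52 without the sex term (0.0391). The direction turned for Pecam1 to 0.96 without the 3 libraries discordant for sex-linked genes, for Cdh5 to −0.27 with the macrophage covariate, for Esam to −0.043 (voom), −0.34 (replicate block) and −0.81 (macrophage covariate), and for Tek to −0.74 (voom), −0.23 (replicate block), −0.30 and −0.037 (13 libraries) and −0.29 (without the 3 libraries). Over the fits without 1 library Pecam1 ran from −1.41 to 0.75, Cdh5 from −0.12 to 0.44, Esam from −0.54 to 0.80, Tek from −0.35 to 1.00, Flt1 from 2.12 to 3.97 and Vwf from 0.84 to 1.54, and the cause was not tested.

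Over all genes edgeR called 108 lower and 103 higher, against 1120 and 976 in DESeq2, 535 and 659 in voom, 42 and 32 without a filter, 200 and 115 with at least 10 counts, 202 and 208 without the sex term, 102 and 69 with the replicate block, 0 and 0 with the macrophage covariate (2112 at an unadjusted p under 0.05), 0 and 2 or 0 and 7 with 13 libraries, and 0 and 0 without the 3 libraries (3284 unadjusted). The genes tested numbered 18263 in the main fit, 33207 without a filter and 12145 with at least 10 counts. They numbered 14994 or 19021 with 13 libraries and 17417 without the 3 libraries. Leaving out 1 library gave 4 to 766 lower and 8 to 470 higher, the most without TauT+/+ male 3. The r of same-numbered deviations ran from −0.040 (female 3) to 0.63 (male 3), and 11 of 14 libraries were closest to their own number. Whether replicate numbers mark paired cultures was not tested, and the main fit had no replicate block. With the replicate block Kdr had a log2 fold change of 2.35 (adjusted p = 0.0671), Flt1 1.16 (0.503), Vwf 0.75 (0.206) and Pecam1 −1.17 (0.255). In the same order the main fit had 2.18, 3.15, 1.35 and −0.15.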

Other observations

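Further marker lists were read in the same libraries. Among all tested genes, 11.8% were higher and 11.8% lower at an unadjusted p under 0.05. The adjusted calls were 0.564% higher and 0.591% lower in edgeR, and 5.34% higher and 6.13% lower in DESeq2. Of 11 pericyte and smooth muscle genes, the cells that wrap capillaries, 11 were tested and 0 passed in edgeR, while 3 were lower in TauT-/- both in DESeq2 and at an unadjusted p under 0.05. These were named after their values were seen: Abcc9 (log2 fold change −4.66, SE 1.22, edgeR adjusted p = 0.0631, DESeq2 0.000186) and Kcnj8 (−3.73, SE 1.20, edgeR adjusted p = 0.0941, DESeq2 0.00746), the subunits of a pericyte potassium channel, and Pdgfrb (−0.57, SE 0.20, edgeR adjusted p = 0.120, DESeq2 0.0482). Their summed CPM ran from 5037 to 7691 in TauT+/+ and from 1633 to 7756 in TauT-/- libraries. Of 13 MSC genes 13 were tested and 0 passed in edgeR, 1 was higher and 3 lower at an unadjusted p under 0.05, and DESeq2 called 2 lower. Their sums ran from 20167 to 37244 CPM in TauT+/+ and from 4847 to 27540 CPM in TauT-/-. Of 8 erythroid genes 2 were tested, with 0 calls in edgeR and DESeq2 and 0 at an unadjusted p under 0.05.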
